A study of Sus scrofa with 30 samples.

Results

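The miR-23, miR-24 and miR-27 families were followed in the plasma of 3 irradiated Göttingen minipigs. The rows were taken by name, as every ssc-miRNA (a miRNA of the pig, Sus scrofa) whose number directly after "ssc-miR-" was exactly 23, 24 or 27. This gave 8 of the 411 ssc-miRNAs in the table, namely ssc-miR-23a, ssc-miR-23b, ssc-miR-24-3p, ssc-miR-24-1-5p, ssc-miR-24-2-5p, ssc-miR-27a, ssc-miR-27b-3p and ssc-miR-27b-5p. All 8 passed the filter on low values, as did all 411. The minipigs were male, about 4 months old, and served as controls of a countermeasure study in which they were given dextrose as the vehicle. All of them received a 2.2 Gy total body irradiation (TBI), and none survived the study. Plasma was taken 7 days (C7) and 1 day (C1) before TBI, 6 h after it (0d), and then on 7 further days whose names give the day after TBI (1d, 3d, 7d, 10d, 14d, 17d or 20d). C7 and C1 of all animals served together as the pre-TBI baseline, and no unirradiated animal was analysed here. The main tests compared later libraries with this pool and not within each animal. In plasma, release from fewer cells and less release per cell cannot be told apart. The later time points were grouped into the study's phases, where Early spans 0d to 7d, Mid joins 10d with 14d, Late is 17d and LR is 20d. These phases had been drawn from the same libraries, so they are not independent of the values compared.

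The table held 1 small RNA library for each animal and time point. The 6 libraries of minipig 3 from 3d to 20d held 0 to 17 counts in all and no count of any of the 8 rows, and were left out. The other 24 libraries held 24341 to 550316 counts, of which 6 came from before TBI. Early had 10 of them, Mid had 4, and Late and LR had 2 each. Mid, Late and LR therefore rested on minipigs 1 and 2, while their baseline also held minipig 3. Every change with time is also a change between libraries of unequal depth. The median total of the pre-TBI libraries was 243304 counts. It was similar at Early with 261501, lower at Mid with 70914 and at Late with 46300, and highest at LR with 475862.

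MicroRNAs are short RNAs that guide the silencing of messenger RNAs, mainly through pairing of the seed near their 5′ end. A hairpin precursor is cut into a 5p and a 3p arm, and usually 1 arm is kept at much higher levels. Mammals carry a pair of miR-23, miR-27 and miR-24 clusters, each transcribed as a common precursor. These families are known in blood vessel, heart, blood cell and fat biology, and they circulate in plasma within vesicles and bound to proteins. In the pig annotation of RefSeq (Sscrofa11.1), the genes stand in the order MIR23A, MIR27A and MIR24-1 at 1 locus, where no other annotated gene overlaps them. At the other locus the order is MIR24-2, MIR27B and MIR23B, inside the protein-coding gene C10H9orf3. The mature miR-24-3p is made from both loci, so only the passenger arms miR-24-1-5p and miR-24-2-5p report 1 locus each.

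The seeds of the 3p arms (all 7 bases, 5′ to 3′) are shown because they separate the miR-24 family from the miR-27 family, which 2 loci encode side by side.
miR-24-3p: GGCUCAG
miR-27a-3p: UCACAGU
The row ssc-miR-27a carries no arm in its name. Mature miR-27a and miR-27b are nearly identical and share their seed, as do miR-23a and miR-23b, so a short read can match both members of a pair.

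Before TBI the miR-27 rows were the most abundant of the 8. As a mean share of all counts in the 6 pre-TBI libraries, ssc-miR-27a held 0.385% and ssc-miR-27b-3p held 0.385%, at ranks 49 and 48 of the 411 ssc-miRNAs. The miR-23 rows held 0.0877% (ssc-miR-23a, rank 170) and 0.0925% (ssc-miR-23b, rank 164). The share of ssc-miR-24-3p was 0.0577%, at rank 218. The 5p arms were lower, with 0.0385% for ssc-miR-24-1-5p (rank 267), 0.0137% for ssc-miR-24-2-5p (rank 374) and 0.0119% for ssc-miR-27b-5p (rank 385). Mature miRNAs are of similar length, and these shares are not corrected for differences in cloning efficiency between sequences.

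The 8 rows together made up 1.07% ± 0.338 (SD, n = 6) of the counts before TBI. Their share was higher at Early with 1.47% ± 0.684 (n = 10), lower at Mid with 0.693% ± 0.252 (n = 4) and at Late with 0.503% ± 0.274 (n = 2), and 1.45% ± 0.397 (n = 2) in the LR libraries. The miR-27 rows set most of this sum, so it describes mainly their course. Both miR-27 rows are in it, and they are read below as 1 measurement, so the shares may count the same reads more than once.

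The rows ssc-miR-27a and ssc-miR-27b-3p held nearly the same count in every library. Over the 24 libraries their totals were 30685 and 30853 counts, and the largest difference in any library was 39 counts. In 19 of the 20 libraries in which the larger of them had at least 100 counts they were within 2% of each other. A chi-square of the paired counts came to 0.0455 per library, where independent counting of equal amounts would give about 1. They differed by less than the sampling noise and are read here as 1 measurement of miR-27. Among the 57970 pairs of the 341 rows with at least 1000 counts, 10 had a value under 1 and 3 were below that of the miR-27 pair.

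For miR-23 the case was less clear. The totals of ssc-miR-23a and ssc-miR-23b were 5222 and 5259 counts, and their chi-square was 1.06 per library, so they also differed by about the counting noise. Only 12 of the 57970 pairs were at or under this value. The log2 ratio of ssc-miR-23a to ssc-miR-23b ran from -0.60 in minipig 1 at 17d, with 21 and 32 counts, to 0.60 in minipig 2 at 10d, with 29 and 19 counts. The largest difference was 60 counts, in minipig 2 at 3d, where they had 295 and 355. Whether shared reads were given to both rows of a pair was not stated in the sources used here.

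**Figure D1:**
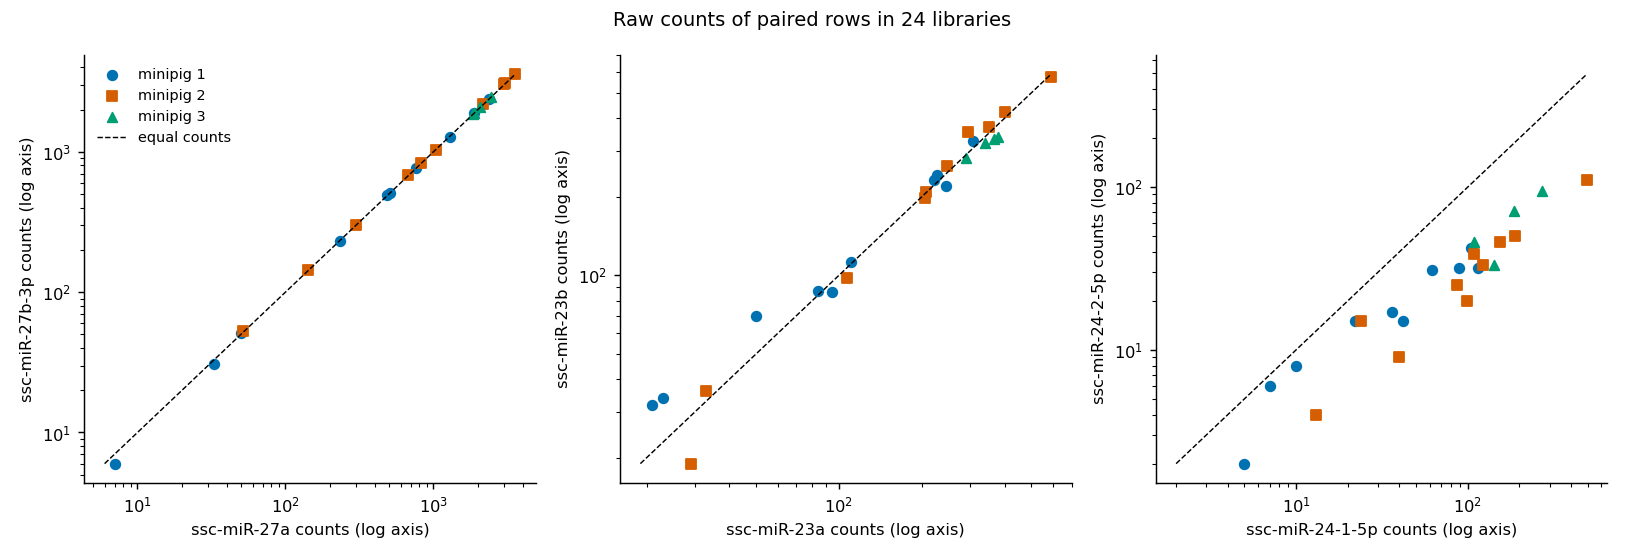
Raw counts of 3 pairs of rows in the 24 libraries, both axes on log scales, 1 point per library with the minipig by colour and shape, and the dashed line for equal counts. The miR-27 points lie on the line, the miR-23 points scatter around it at low counts, and all 24 points of the miR-24 5p arms lie below it.

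The course of miR-27 after TBI had a high point at 3d, a low point at 10d and levels above the pre-TBI range at 20d. At 17d it was below the pre-TBI range in minipig 1. In minipig 2 it was inside that range but below both pre-TBI libraries of that animal. Levels are given as CPM, the count scaled by library size after TMM normalization, a scale that sets each row against the other ssc-miRNAs of its library. Before TBI, ssc-miR-27a ran from 1622 to 4494 CPM with a median of 4069. At Early it ran from 3076 to 11474 CPM with a median of 4865, and 6 of the 10 libraries were above every pre-TBI library. Its highest levels were those of both 3d libraries, 9007 CPM in minipig 1 and 11474 CPM in minipig 2. At 1d the level was 4940, 6944 and 5073 CPM in minipigs 1, 2 and 3, all above the pre-TBI range. The share of all rows above that range at 1d was not counted.

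By 7d the level was 3522 CPM in minipig 1 and 3158 CPM in minipig 2, back within the pre-TBI range. At 10d it was 1188 and 1213 CPM, below all 6 pre-TBI libraries, in libraries of 59291 and 35762 counts. The share of all rows below the pre-TBI range at 10d was not counted either. At 14d it was 2516 and 2618 CPM, inside the range only through the C7 library of minipig 1 (1622 CPM, 33 counts). The next lowest pre-TBI library, minipig 2 at C1, was at 2847 CPM. The minipigs parted at 17d, when ssc-miR-27a was at 332 CPM in minipig 1, from 7 counts, and at 2230 CPM in minipig 2. The latter was again inside the range only through that C7 library. At 20d the level was 5644 and 4909 CPM, above the pre-TBI range in both, as held for 6.57% of all rows. ssc-miR-27b-3p gave the same picture, from 284.9 CPM in minipig 1 at 17d (6 counts) to 11504 CPM in minipig 2 at 3d.

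**Figure D2:**
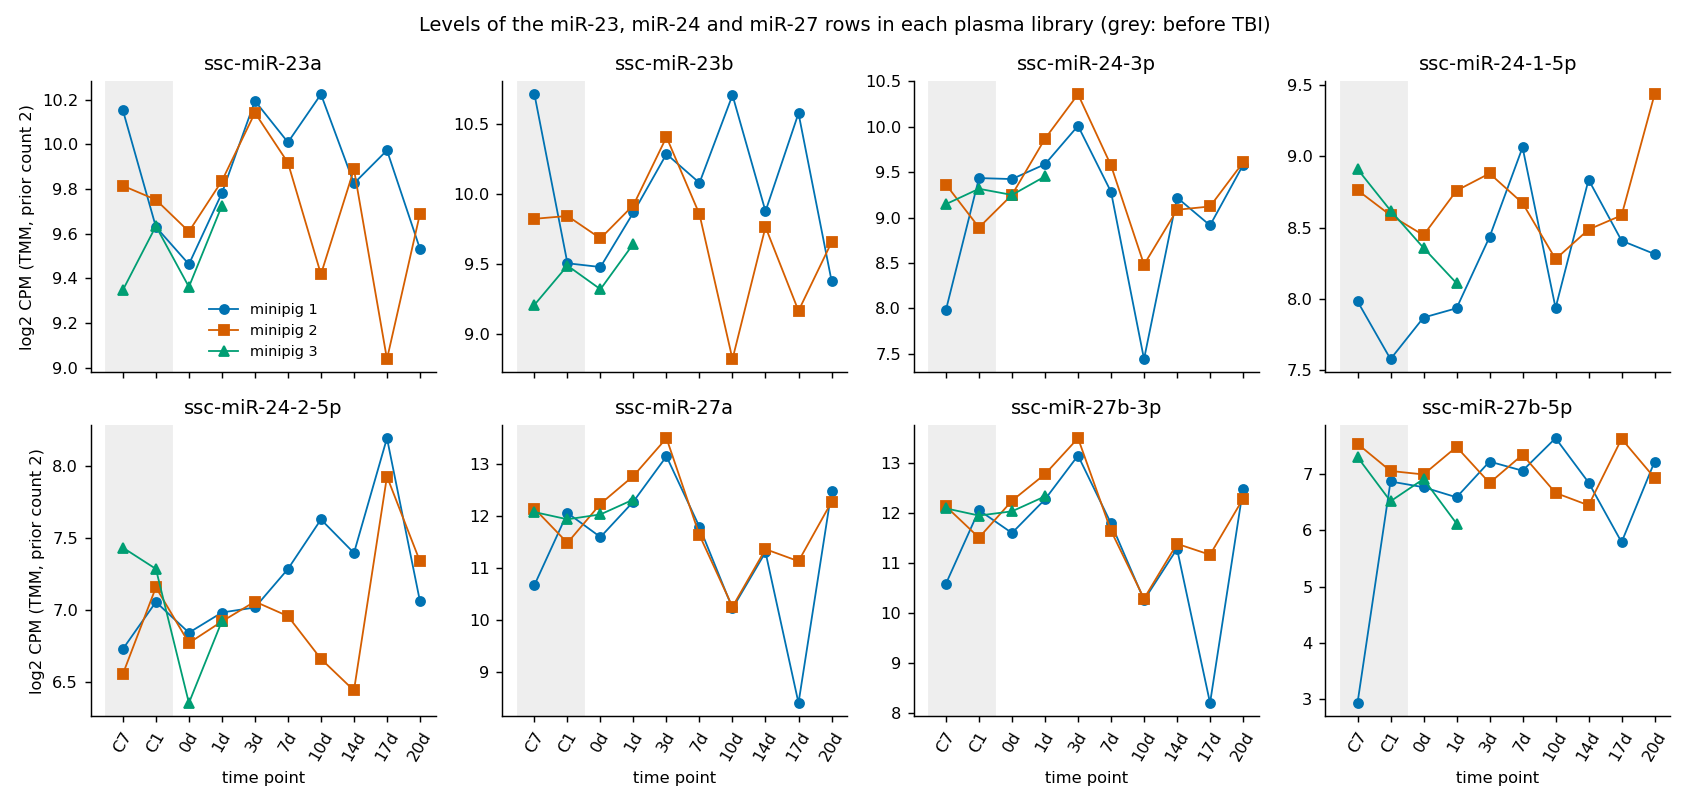
Levels of the 8 rows (log2 CPM, TMM, prior count of 2) at each time point, 1 line per minipig, with the pre-TBI points on grey and a y axis of its own in each panel. The miR-27 rows and ssc-miR-24-3p peak at 3d and are low at 10d in both minipigs with libraries, and the miR-23 rows do so in minipig 2 but are high at 10d in minipig 1.

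None of the 8 rows passed an adjusted p under 0.05 in any phase (edgeR quasi-likelihood test, Benjamini-Hochberg over 411 rows), and DESeq2 called none either. The share of all 411 rows called by edgeR was 4.38% for Late and 0% for each of the other phases, and DESeq2 called 8.09% of the 408 rows it gave an adjusted p at Early, 6.62% at Late and 0% in the other two. At an unadjusted p under 0.05, 1 of the 8 rows passed at Early, beside 18.7% of all rows. That count was 0 at Mid beside 5.35%, 3 at Late beside 22.6% and 0 at LR beside 5.6%. With the miR-27 rows summed to 1 row, 0 of 7 passed at Early beside 18.5%, and 2 of 7 at Late beside 20.2%. In phase order the median log2 fold change of the 8 rows was 0.09, -0.09, -0.05 and 0.29, where the median of all rows was 0.02, 0.05, 0.08 and -0.01. The libraries of an animal are not independent of each other, and the test used no term for the animal.

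Against pre-TBI, the log2 fold change of ssc-miR-27a was 0.65 ± 0.36 (SE, adjusted p = 0.317) at Early, higher in 3 of 3 minipigs. The within-animal differences were 0.84, 0.72 and 0.17 log2 CPM in minipigs 1, 2 and 3. Minipig 3 had only 0d and 1d libraries at Early. In minipig 1 the Early mean was 12.20 log2 CPM, against 10.67 at C7 (24341 counts) and 12.05 at C1. At Mid the log2 fold change was -0.92 ± 0.45 (adjusted p = 0.808), lower in 2 of 2 minipigs. At Late it was -1.44 ± 0.61 (unadjusted p = 0.0278, adjusted p = 0.176), again lower in both. The lower level at Late was uneven, with a within-animal difference of -2.95 log2 CPM in minipig 1 and -0.68 in minipig 2. Without minipig 2 the Late value of ssc-miR-27a was -3.71 (adjusted p = 0.0196, range 0.0196 to 0.618 over the alternatives), which rests on the 7 counts of 1 library and takes its spread from the other groups, and without minipig 1 it was -0.85 (adjusted p = 0.601). At LR it was 0.56 ± 0.53 (adjusted p = 0.682), and both libraries lay above all 6 of pre-TBI.

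For miR-27 the differences of Mid from Early and of LR from Late were larger in size than that of any phase from baseline. These contrasts were chosen after the data had been seen. From Early to Mid, ssc-miR-27a differed by -1.57 ± 0.44 (SE, unadjusted p = 0.00162, adjusted p = 0.0672) and ssc-miR-27b-3p by -1.57 (adjusted p = 0.0698). From Late to LR, ssc-miR-27a was 3.99-fold higher (SE 0.71 on the log2 scale, unadjusted p = 0.0096, adjusted p = 0.0961). Without minipig 2 this last difference was 4.21 on the log2 scale (adjusted p = 0.0179, range 0.0179 to 0.667 over the alternatives), and without minipig 1 it was 1.20 (adjusted p = 0.667). Each phase is then 1 library, assumed to vary like the other groups, and at 17d minipig 1 had 7 counts. No row of the 8 passed the adjusted threshold in Mid against Early, Late against Mid or LR against Late, where 0%, 4.62% and 0.73% of all rows did. At an unadjusted p under 0.05 the shares of all rows were 23.1%, 17.5% and 32.1%.

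Single time points were compared in a separate fit. At 3d, ssc-miR-27a was 2.86-fold of pre-TBI (log2 fold change 1.52 ± 0.42, SE, n = 2 against 6, edgeR adjusted p = 0.0719). This adjusted p ran from 0.00367 to 0.788 over the alternatives, with 0.00367 in the libraries of at least 50000 counts (log2 fold change 1.41) and 0.012 by DESeq2 (1.54). At 10d, ssc-miR-27a was at 0.335-fold of pre-TBI (-1.58 ± 0.51, unadjusted p = 0.00591, adjusted p = 0.61). Across 8 rows and 8 time points, 0 pairs of row and time point passed the adjusted threshold by edgeR, beside 0.882% of all such pairs, and 9 of the 64 (14.1%) passed unadjusted, beside 10.6%. DESeq2 called 5 of the 64 (7.81%) at its adjusted threshold, beside 2.77% of all pairs. These were both miR-27 rows and ssc-miR-24-3p at 3d, and both miR-27 rows at 17d. The 9 pairs of edgeR were ssc-miR-27a and ssc-miR-27b-3p at 3d, 10d and 17d, ssc-miR-24-3p at 3d and 10d, and ssc-miR-24-2-5p at 17d.

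The background of these counts over all 411 rows differed between time points. At an adjusted p under 0.05 the 17d libraries led with 4.87%, followed by those of 3d with 1.22%, 20d with 0.73% and 14d with 0.243%, and the share was 0% for the other four. At an unadjusted p under 0.05 the share was 23.8% for 17d and 12.2% for 1d. It was 8.52% for 3d as for 0d, 8.27% for 7d, 7.3% for 10d, 9% for 14d and 7.06% for 20d. At 3d and at 10d 3 of the 8 rows passed unadjusted, and of these 3 the miR-27 rows are 1 measurement.

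ssc-miR-24-3p, the mature strand made at both loci, moved with miR-27 from library to library. Before TBI it ran from 245.7 CPM in minipig 1 at C7, where it had 5 counts, to 684.5 CPM, with a median of 595 CPM. At 3d it was at 1023 CPM in minipig 1 and 1304 CPM in minipig 2, the 2 highest levels of the 24. At 10d it was at 166.3 CPM (7 counts) and 350.0 CPM (15 counts). At 17d it was at 474.9 CPM (10 counts) and 549.7 CPM (35 counts), inside the pre-TBI range, and at 20d at 756.7 and 772.2 CPM, above that range in both animals.

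The log2 fold change of ssc-miR-24-3p at Early was 0.53 ± 0.25 (SE, unadjusted p = 0.0418, adjusted p = 0.244), higher in 3 of 3 minipigs. The within-animal differences were 0.87, 0.64 and 0.12 log2 CPM in minipigs 1, 2 and 3. Minipig 3 had only 0d and 1d libraries here. The Early mean of minipig 1 was 9.58 log2 CPM, against 7.98 at C7 (5 counts) and 9.44 at C1. At Mid the log2 fold change was -0.40 (adjusted p = 0.934) and at LR 0.47 (adjusted p = 0.607). At Late it was -0.10 (adjusted p = 0.936), where miR-27 was at its lowest. From Early to Mid it differed by -0.93 ± 0.30 (unadjusted p = 0.00479, adjusted p = 0.0857). At 3d alone it was 2.11-fold of pre-TBI (log2 fold change 1.08 ± 0.29, adjusted p = 0.0666, range 9.28e-04 to 0.893 over the alternatives, with the lowest by DESeq2).

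Counts of 2 rows in the same library need no normalization between libraries, so their ratio was followed as well. The log2 ratio of ssc-miR-27a to ssc-miR-24-3p was 2.70 ± 0.14 (SD, n = 6) before TBI, and its spread among the pre-TBI libraries was the narrowest of the 10 ratios followed except that of the miR-27 pair. It was 2.73 ± 0.37 at Early, 2.22 ± 0.41 at Mid and 2.78 ± 0.16 at LR. In the Late libraries it was -0.49 in minipig 1, from 7 and 10 counts, and 2.01 in minipig 2, where both rows had at least 35 counts. Over the 24 libraries, which came from 3 animals and share their depth and scaling, the Spearman correlation of the 2 levels was 0.879.

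The miR-23 rows, made from the same loci, had smaller fold changes than miR-27 in every phase. Before TBI ssc-miR-23a ran from 644.0 to 1130 CPM with a median of 820.6, and at Early from 650.3 to 1164 CPM with a median of 889.5. The Mid libraries held 1188 and 676.7 CPM at 10d and 899.3 and 940.0 CPM at 14d in minipigs 1 and 2. Those of Late held 997.3 and 518.3 CPM, and those of LR 732.8 and 818.0 CPM. At 3d ssc-miR-23a was at 1164 CPM in minipig 1 and 1121 CPM in minipig 2, and ssc-miR-23b at 1240 and 1350 CPM. Both rows had their highest level of minipig 2 at 3d, as miR-27 did, whereas in minipig 1 ssc-miR-23a was highest at 10d and ssc-miR-23b at C7. The log2 fold change at 3d was 0.44 for ssc-miR-23a (edgeR adjusted p = 0.775, by DESeq2 0.53 with an adjusted p of 0.0828) and 0.53 for ssc-miR-23b (edgeR adjusted p = 0.878). Every phase of ssc-miR-23a overlapped the pre-TBI range. In phase order its log2 fold change was 0.10 ± 0.19 (SE), 0.14 ± 0.24, -0.18 ± 0.31 and -0.12 ± 0.30, with adjusted p (edgeR) from 0.765 to 0.978. ssc-miR-23b ranged from -0.30 to 0.19 over the 4 phases, with standard errors of 0.27 to 0.44, and its sign changed with the processing in every phase.

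Set against each other, miR-27 and miR-23 parted at Mid. The log2 ratio of ssc-miR-27a to ssc-miR-23a was 2.01 ± 0.80 (SD, n = 6) in the pre-TBI libraries and 2.53 ± 0.52 (n = 10) at Early. At Mid it was 0.95 ± 0.70 (n = 4), and it was 2.76 ± 0.25 (n = 2) at LR. At 10d both rows had 50 counts in minipig 1, where the ratio was 0.00, and the ratio was 0.83 in minipig 2. The Late values were -1.52 in minipig 1 and 2.09 in minipig 2. The groups overlapped between pre-TBI and Mid, because the shallow C7 library of minipig 1 had a ratio of 0.51 where the other 5 pre-TBI libraries had 1.73 to 2.73. The Spearman correlation of the 2 levels was -0.03 over the 24 libraries. The difference between the rows was not tested.

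**Figure D3:**
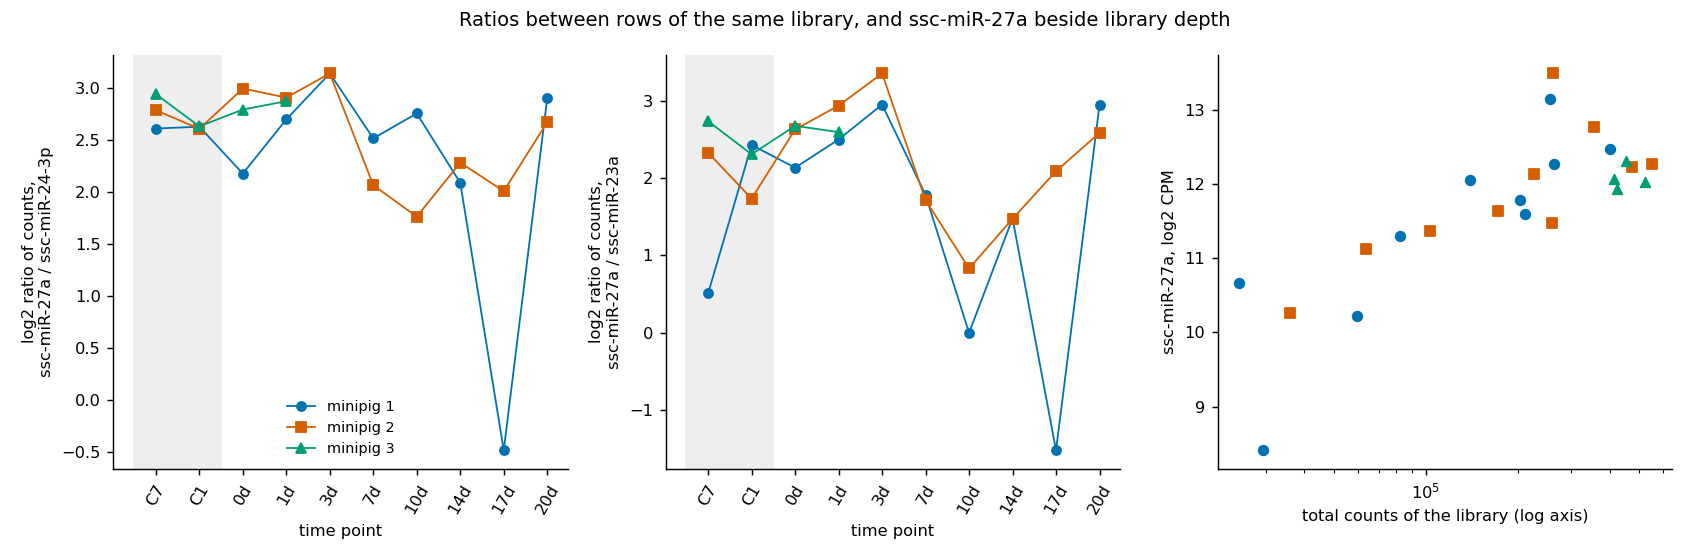
The first 2 panels give the log2 ratio of raw counts of ssc-miR-27a to ssc-miR-24-3p and to ssc-miR-23a at each time point, 1 line per minipig with the pre-TBI points on grey, and the last gives the level of ssc-miR-27a (log2 CPM) against the total counts of each of the 24 libraries on a log axis. The ratio to ssc-miR-24-3p lies between 2.60 and 2.94 in the pre-TBI libraries and from -0.49 (minipig 1 at 17d) to 3.14 in the later ones, the ratio to ssc-miR-23a is low at 10d in both minipigs, and the level of ssc-miR-27a is higher in deeper libraries.

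The passenger arms of miR-24 tell the loci apart. Over all 24 libraries ssc-miR-24-1-5p, from the MIR23A locus, had 2528 counts and ssc-miR-24-2-5p, from the MIR23B locus, had 796, a ratio of 3.18, and the first was higher in 24 of 24 libraries. The log2 ratio averaged 1.39 ± 0.57 (SD, n = 6) in the pre-TBI libraries, and 1.59 ± 0.38, 1.36 ± 0.75 and 1.72 ± 0.60 at Early, Mid and LR. At Late it was 0.21 in minipig 1, from 7 and 6 counts, and 0.66 in minipig 2, from 24 and 15 counts. The first of these was below all 6 pre-TBI libraries, which ran from 0.54 to 2.28, and the second was inside their range. The share of other ratios outside their range was not counted. These ratios compare arms of different sequence, and the Spearman correlation of the 2 levels was 0.285.

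ssc-miR-24-2-5p had its highest levels at Late. Before TBI it ran from 86.3 to 164.9 CPM with a median of 130.1. At 17d it was at 284.9 CPM in minipig 1 and 235.6 CPM in minipig 2, from 6 and 15 counts, above all pre-TBI libraries. This was 1 of the 8 rows beside 6.81% of all rows with Late libraries above the whole baseline. The log2 fold change was 0.96 ± 0.34 (SE, unadjusted p = 0.0217, adjusted p = 0.165), with within-animal differences of 1.30 and 1.07, and its p is held at that of Poisson counting, so it is larger than the standard error gives. Against Mid the difference was 0.99 ± 0.37 (adjusted p = 0.163), and LR differed from Late by -0.86 ± 0.39 (adjusted p = 0.139). At 20d the level was 125.6 and 153.9 CPM, inside the pre-TBI range. At Early its log2 fold change was -0.20 and at Mid -0.03.

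ssc-miR-24-1-5p stayed close to baseline in the first 3 phases, with log2 fold changes of -0.01 ± 0.23 (SE), -0.07 ± 0.30 and -0.00 ± 0.36. At LR it was 0.48 ± 0.35 (adjusted p = 0.593), with 311.1 CPM in minipig 1, inside the pre-TBI range of 183.7 to 473.8 CPM, and 684.9 CPM in minipig 2, above it. Without minipig 2 the LR value turned to -0.30. The level differed between animals before TBI, with 5 and 22 counts in minipig 1 (log2 CPM of 7.98 and 7.58) and log2 CPM of 8.59 to 8.91 in the other two.

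**Figure D4:**
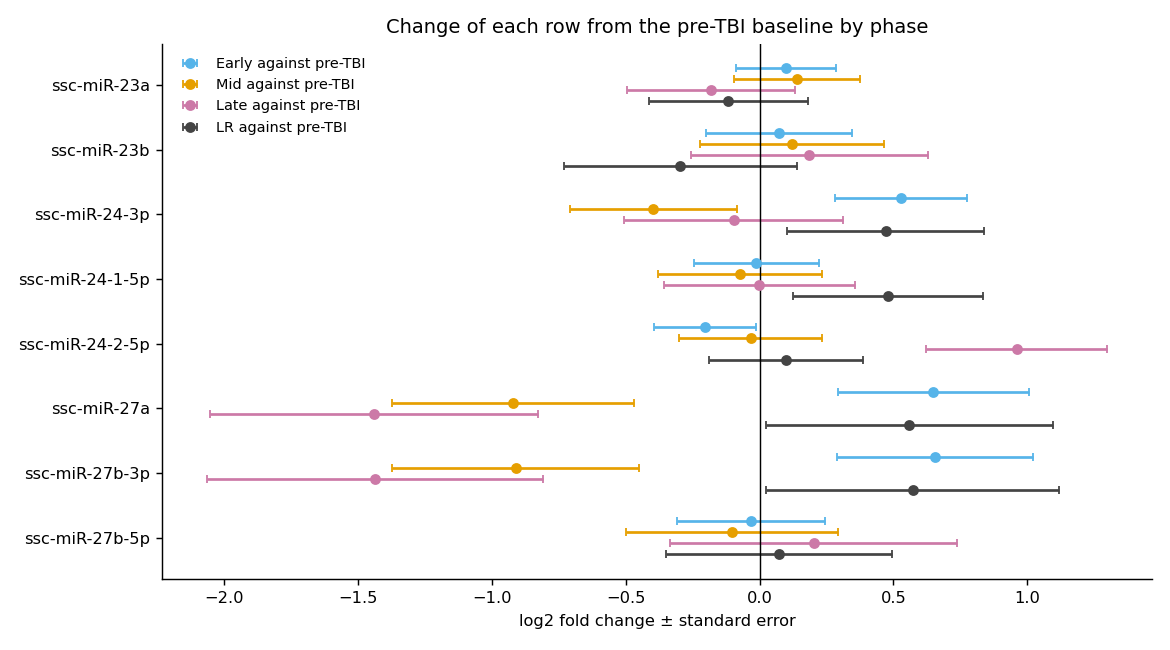
Log2 fold change of each of the 8 rows against pre-TBI in the 4 phases (points) with 1 standard error on each side (bars), from the edgeR fit of 24 libraries. The miR-27 rows lie right of 0 at Early and LR and left of it at Mid and Late, ssc-miR-24-2-5p lies right of 0 at Late, and the miR-23 rows stay within about 0.3 of 0.

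The 5p arm of miR-27b was scarce and did not follow the row of the 3p arm. That 3p row is read here as 1 measurement with ssc-miR-27a. Its counts may therefore include reads of miR-27a, and the ratios below may not compare the arms of miR-27b alone. ssc-miR-27b-5p had 756 counts in all against 30853 of ssc-miR-27b-3p, a ratio of 40.8. The log2 ratio of the 3p to the 5p arm was 5.13 ± 0.56 (SD, n = 6) in the pre-TBI libraries and 5.48 ± 0.74 (n = 10) at Early. The highest pre-TBI value, 5.98 in minipig 1 at C7, is set by the 0.5 added to a 5p count of 0, and the other 5 ran from 4.52 to 5.54. The mean ratio was smaller at Mid with 3.91 ± 1.05 and Late with 2.83 ± 1.01 (n = 2), and 5.38 ± 0.08 at LR. Both Late values, 2.12 and 3.54, were below all 6 pre-TBI values, and the smaller of them came from 6 and 1 counts. How often ratios of other rows fell outside their pre-TBI range was not counted, so this separation has no background. The level of the 5p arm itself had log2 fold changes of -0.03, -0.10, 0.20 and 0.07 over the 4 phases, with standard errors of 0.28 to 0.54. In minipig 1 at C7 it had 0 counts in a library of 24341, which allows a share of up to 0.0123% (3 counts of the total, counting error only), above its mean pre-TBI share.

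Of the 8 rows, 3 had LR libraries above the whole baseline, namely ssc-miR-24-3p, ssc-miR-27a and ssc-miR-27b-3p. The share over all rows was 6.57%. The 2 miR-27 rows are 1 measurement, and ssc-miR-24-3p correlated with ssc-miR-27a at 0.879 (Spearman), so the 3 rows are not separate results. LR also had the highest median depth. In these 3 rows the phases Early, Mid and Late overlapped the pre-TBI range.

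The level of miR-27 moved with the depth of the library. Over the 24 libraries, from 3 animals, log2 CPM of ssc-miR-27a and the log2 total had a Pearson correlation of 0.797 and a Spearman correlation of 0.75. Without the 2 libraries farthest from the median depth Pearson's value was 0.744, within minipig 1 it was 0.845, within minipig 2 0.779, and among the 6 pre-TBI libraries alone 0.825. Only 2 of the 411 rows had a higher Spearman value, among them ssc-miR-27b-3p (0.757), which is read as the same measurement. Of all rows 8.27% were above 0.5, and the median row was at 0.0504. For ssc-miR-24-3p the Pearson and Spearman values were 0.646 and 0.561, and for ssc-miR-23a they were -0.224 and -0.38. In the libraries of at least 50000 counts alone, a limit chosen after the data had been seen, the log2 fold change of ssc-miR-27a was 0.44 at Early (adjusted p = 0.545) and -0.97 at Mid (adjusted p = 0.259). It was -0.82 at Late (adjusted p = 0.618), now from 1 library, and 0.27 at LR (adjusted p = 0.833), so the values of Late and LR shrank by over 1.5 times. LR differed from Late by 1.09 in the same fit (adjusted p = 0.624).

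Plasma miRNAs can come from red cells, platelets and vessel walls, so markers of these were set beside the members. miR-126, a miRNA of endothelial cells and platelets, had 2 rows whose summed level was 10.39 ± 0.50 log2 CPM (SD, n = 6, range 9.43 to 10.80) before TBI. The sum was 11.00 ± 0.34 (10.51 to 11.67) at Early and 10.60 ± 0.31 (10.30 to 10.95) at Mid. It was lowest at Late with 9.94 ± 0.17 (9.82 to 10.06) and highest at LR with 11.61 ± 0.61 (11.18 to 12.04). ssc-miR-126-5p, whose log2 fold change was 0.83 at Early (adjusted p = 0.230) and 1.75 at LR (adjusted p = 0.337), was also the row most like miR-27 in its pattern, and it was -0.31 at Mid and -1.05 at Late. ssc-miR-126-3p did not follow it in every phase, with 0.24 at Early, 0.52 at Mid (unadjusted p = 0.0634, adjusted p = 0.808), -0.12 at Late and 0.27 at LR. The 3 erythroid rows, miR-451, miR-144 and miR-486, summed to 14.51 ± 1.09 (13.13 to 16.43) before TBI and 14.54 ± 1.06 (13.17 to 15.81) at Early. For Mid the sum was 13.93 ± 0.49 (13.47 to 14.58), for Late 13.17 ± 0.20 (13.03 to 13.32) and for LR 13.79 ± 0.71 (13.29 to 14.29). Each of the marker rows had at least 1 count in all 24 libraries. Their part in the course of miR-27 was not tested.

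The ratio of miR-451 to miR-23a is widely used as an index of haemolysis in plasma, since miR-451 is abundant in red cells. Its log2 value was 1.12 ± 1.73 (SD, n = 6) before TBI, with a range of -1.16 to 3.43. In phase order it was then 1.29 ± 1.47, -0.74 ± 0.68, -0.86 ± 0.80 and 0.88 ± 1.19. The numerator set these differences, since ssc-miR-451 had a log2 fold change of -2.42 at Mid (unadjusted p = 0.0121, adjusted p = 0.808) and -2.74 at Late (adjusted p = 0.192), while ssc-miR-23a was within 0.18 of baseline.

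In other lists, miR-150 (lymphocytes) had 1 row with a mean of 9.07 log2 CPM before TBI and 9.19 to 9.36 in the phases after it. The 2 miR-142 rows (white cells) summed to 9.48 in the pre-TBI libraries, and in phase order to 9.29, 8.06, 8.97 and 8.71. miR-122 (liver) was at 9.83 before TBI and 9.02, 9.03, 9.57 and 8.47 after it, and the summed level of the 5 rows of striated muscle had phase means of 10.74 to 10.87, with single libraries from 10.30 to 11.17. Among these, ssc-miR-1 had a log2 fold change of -1.41 at Early (unadjusted p = 0.00419, adjusted p = 0.0905) and ssc-miR-133a-3p of 0.46 (unadjusted p = 0.0162, adjusted p = 0.180). The list for myeloid cells, miR-223, matched no row used here.

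For each member the 3 most similar rows were named by the Spearman correlation of log2 CPM over the 24 libraries, among 395 rows outside the families with a median of at least 10 counts. The row closest to ssc-miR-27a, ssc-miR-27b-3p and ssc-miR-24-3p was in each case ssc-miR-126-5p, with 0.856, 0.857 and 0.832. After it came ssc-miR-9794-3p (0.719) and ssc-miR-9841-3p (0.713) for ssc-miR-27a, ssc-miR-9794-3p (0.716) and ssc-miR-16 (0.713) for ssc-miR-27b-3p, and ssc-miR-9841-3p (0.737) and ssc-miR-574 (0.703) for ssc-miR-24-3p. The miR-23 rows had other neighbours, namely ssc-miR-7137-3p (0.692), ssc-miR-532-3p (0.602) and ssc-miR-122 (0.583) for ssc-miR-23a and ssc-miR-374a-5p (0.690), ssc-miR-20a (0.682) and ssc-miR-7137-3p (0.646) for ssc-miR-23b. The closest row to ssc-miR-24-1-5p was ssc-miR-421-3p (0.730), followed by ssc-miR-9795-3p (0.644) and ssc-miR-9822-3p (0.597). ssc-miR-24-2-5p had no close neighbour, with 0.488 for ssc-miR-1839-5p and 0.487 for both ssc-miR-218-5p and ssc-miR-218. For ssc-miR-27b-5p they were ssc-miR-21 (0.585), ssc-miR-128 (0.54) and ssc-miR-30e-5p (0.510). All points of these correlations share their libraries, depth and scaling.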

How the data were processed

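Small RNA of 5 µL plasma was sequenced for 3 minipigs at 10 time points. According to the study's methods, the authors trimmed NextSeq reads (bcl2fastq, Cutadapt), mapped them with Bowtie (Bowtie2 2.2.3.0 in the submitters' processing notes) first to the ssc5 pig assembly and next to the miRBase ssc-miRNAs, and used miRDeep2 for quantification. The values as deposited are raw counts per ssc-miRNA without normalization, and 0 columns were left unmapped. How reads matching several miRNAs were counted is not given in the sources used here.

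Libraries under 1000 counts were left out. The 24 others held 24341 to 550316 counts, and precision covers counting error only. edgeR 4.0.16 (R 4.3.3) tested 5 phase groups in 1 quasi-likelihood fit with TMM and a filter of CPM over 0.5 in 3 libraries, and 9 time groups in a second fit. The Benjamini-Hochberg adjustment ran over 411 rows. Each SE equals the absolute log2 difference over the root of its F value, and it can part from p where the spread is under Poisson. Fold changes used a prior count of 0.125, log2 CPM one of 2, and ratios added 0.5 to each count. The scripts were tested on simulated data. DESeq2 1.42.0 was an alternative, along with other scalings, filters, baselines and left-out animals. Python 3.11.15, pandas 2.3.3 and matplotlib 3.10.9 served for tables and figures.

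The design pairs the libraries of each animal. Deviations from phase means correlated by 0.169 on average over 78 within-animal pairs, against -0.102 over 130 pairs of different animals. With 2 libraries in Late and in LR, the deviations there are mirror images of each other. The value between animals is thus partly forced and is not an independent reference. No libraries of a phase were duplicates (smallest chi-square per degree of freedom 21.8). Named are all 8 rows, the 3 rows most like each, and marker rows. The members and lists were chosen with earlier results of these data known. Gene order came from RefSeq names, and seeds from the study's supplementary tables.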

Additional observations from a re-analysis of the deposited data

Results flagged for a closer look

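One group held a library far from the others. In the 6 pre-TBI libraries, ssc-miR-27b-5p was lowest in minipig 1 at C7, at 2.94 log2 CPM from 0 counts, and the nearest library was at 6.51. The gap was 0.778 of the group's range, above Dixon's critical value of 0.625 for 6 samples. It was 1 of 24 groups tested, and chance flags about 1 in 20. That library held 24341 counts, the smallest total of the 24.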

How the results depend on the processing

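Of 719 recomputed fold changes, 651 kept their direction and their side of the threshold, 17 passed an adjusted p under 0.05, and 51 changed sign, all of the last in the 5p arms and the miR-23 rows. The counts of members called were 0 in every phase under the alternatives, except that leaving out a minipig gave 0 to 2 at Late, with 2 without minipig 2, where 18.7% of all rows were called. The calls over 8 time points, 0 in the reported fit, were 5 of 64 (7.81%) by DESeq2 beside 2.77% of all rows and time points, 0 to 2 without 1 minipig beside 0% to 1.64%, and 7 (10.9%) in libraries of at least 50000 counts, a limit chosen after seeing the data, beside 3.47%. Both miR-27 rows are counted in these numbers, though they are read as 1 measurement. The causes were not tested. That limit left 1 library at 10d, where ssc-miR-27a had -1.78. With the minipig as a block, which follows the pairing of libraries, no adjusted call changed, ssc-miR-27a was 0.58 at LR, and signs turned for ssc-miR-24-1-5p at Early (0.029), Mid (0.0051) and Late (0.021), for ssc-miR-23b at Mid (-0.083) and Late (-0.040), and for ssc-miR-27b-5p at LR (-0.036).

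With C7 alone as the baseline, ssc-miR-23b turned at Early (-0.13), Mid (-0.034) and Late (-0.16), and ssc-miR-27b-5p at Late (-0.12) and LR (-0.24). With C1 alone, ssc-miR-24-1-5p turned at Early (0.15), Mid (0.094) and Late (0.17), and ssc-miR-27b-5p at Early (0.17) and Mid (0.10). At Late, ssc-miR-23b was -0.15 by library size only, -0.0057 without the most abundant row, -0.0044 with the miR-27 rows summed and -0.42 in libraries of at least 50000 counts, while ssc-miR-27b-5p was -0.062 by library size only and ssc-miR-24-1-5p was 0.0018 with the 50000-count limit. At LR, ssc-miR-24-2-5p was -0.034 without the most abundant row, -0.037 with the miR-27 rows summed and -0.072 with the 50000-count limit, and ssc-miR-27b-5p was -0.075, -0.078 and -0.18.

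Leaving out 1 minipig in turn gave ranges that crossed 0. For ssc-miR-23a they were -0.014 to 0.37 at Mid and -0.32 to 0.067 at LR. For ssc-miR-23b they were -0.044 to 0.18 at Early, -0.27 to 0.57 at Mid, -0.49 to 0.50 at Late and -0.58 to 0.068 at LR. For ssc-miR-24-1-5p they were -0.24 to 0.23, -0.40 to 0.14, -0.33 to 0.12 and -0.30 to 0.73 in the same order. For ssc-miR-24-2-5p they were -0.42 to 0.067 at Early, -0.75 to 0.29 at Mid, -0.37 to 0.32 at LR and -0.34 to 0.69 for Mid against Early. For ssc-miR-27b-5p they were -0.22 to 0.034 at Early, -0.72 to 0.43 at Mid, -1.45 to 0.45 at Late and -0.21 to 0.23 at LR. Depth limits the rows most at Mid and Late, where the 5p arms held 1 to 42 counts.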
